A study of Mus musculus with 24 samples.

Results

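Gene expression was compared between the BAP1-AID and UTX-AID clones of mouse embryonic stem cells (ESCs) before differentiation was induced. The members are the 8 RNA-seq libraries collected at 0 h of retinoic acid (RA), of 24 in the series, with 4 from each clone. The comparison covers autosomal genes only: 15171 autosomal genes passed the filter on low counts, of 24998 autosomal genes and 26264 genes in all in the deposited table.

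BAP1-AID ESCs carry an HA-AID degron tag at the C terminus of BAP1, the catalytic subunit of the PR-DUB complex that deubiquitinates H2AK119ub1. UTX-AID ESCs carry the tag at the N terminus of UTX, the H3K27me3 demethylase encoded by the X-linked gene Kdm6a. Each tag was introduced by CRISPR-Cas9, each line is a single clone, and TIR1, the ligase adaptor that auxin brings to the tag, was stably overexpressed in both. The cells were kept in serum and leukemia inhibitory factor (LIF) on gelatin, and 2 libraries of each clone were made without (−IAA) and 2 with (+IAA) the auxin indole-3-acetic acid, which leads to degradation of the tagged protein. The degron, the clone and its culture history cannot be told apart as sources of a difference, because there is 1 clone per tag. The sources do not state whether replicates came from separate cultures, so p-values measure only the spread between these libraries.

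Mouse ESCs in serum and LIF occupy a range of pluripotent states. Naive cells express factors such as Klf4, Esrrb, and Zfp42, while formative or primed epiblast cells, which have begun to leave that state, express Otx2, Fgf5, and the de novo DNA methyltransferases. Rare cells of such cultures enter a two-cell-like state marked by the Zscan4 genes, and others begin to express genes of primitive endoderm or the early germ layers.

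The clones were compared by edgeR's quasi-likelihood test with the IAA arm as a covariate. All log2 fold changes are UTX-AID minus BAP1-AID with their standard error (SE), levels are in CPM (counts scaled to 1000000 per library), given where 4 values stand in a row for −IAA replicates 1 and 2 and then +IAA replicates 1 and 2, and a call required both an adjusted p below 0.05 and an absolute log2 fold change above 1. Of the 15171 autosomal genes, 2168 (14.3%) were called higher and 1239 (8.17%) lower in UTX-AID than in BAP1-AID ESCs. The median log2 fold change of all these genes was 0.04, with quartiles of −0.51 and 0.75. Of them, 9215 (60.7%) had an adjusted p below 0.05 at any fold change, and at an unadjusted p the share cannot be smaller. In 8621 (56.8%) the libraries of the clones did not overlap, so neither trait is particular to a named gene. Counts of calls in the lists below are to be read beside the 14.3% and 8.17% of all genes. The library totals lay between 47081228 and 52740738 counts, and 3 counts, taken as the detection floor, equalled between 0.0567 and 0.0624 CPM. With a correction for the GC content and length of transcripts, 1810 genes (11.9%) were called higher and 1016 (6.7%) lower, and not all were the same genes. Of the 2168 called higher without it, 1425 (65.7%) were still called higher, and of the 1239 called lower, 809 (65.3%) were still called lower. The correction is given below wherever it ended a call that is named.

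Both clones expressed the core pluripotency genes at high levels. Pou5f1, which encodes OCT4, was at 1444, 1368, 1258, and 1249.6 CPM in the 4 BAP1-AID libraries and at 880.4, 951, 867, and 858 CPM in the 4 UTX-AID libraries. Its log2 fold change of −0.58 ± 0.05 (adjusted p = 1.93e-06) was larger than the spread between libraries but below the threshold for a call. Sox2, the partner of OCT4, was at 481 to 513 CPM in BAP1-AID and 291 to 319 CPM in UTX-AID ESCs, with a log2 fold change of −0.71 ± 0.06. Of the 12 core genes tested, 1 was called higher and 1 lower (8.33% each, not above 14.3% and near 8.17% of all genes). Their median log2 fold change was −0.35.

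Those 2 genes differed in opposite directions. Nanog, the homeobox factor that stabilises the undifferentiated state, was at 132, 107, 84.8, and 76.8 CPM in BAP1-AID and 311, 240.0, 259, and 236 CPM in UTX-AID ESCs. The clones did not overlap, and the log2 fold change was 1.41 ± 0.11 (adjusted p = 6.37e-07). Nanog lies on chromosome 6 (chr6:122679780-122691601, mm39), most of whose genes were higher in UTX-AID, and with each chromosome's median taken off its log2 fold change was 0.88, which is no longer a call. Lin28a, an RNA-binding protein that blocks let-7 maturation and increases as naive cells exit, was at 871, 857, 806, and 809 CPM in BAP1-AID and 333, 394, 263, and 261 CPM in UTX-AID ESCs. Its log2 fold change was −1.43 ± 0.08 (adjusted p = 5.99e-08).

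Among 16 naive genes, 3 were called higher in UTX-AID ESCs (against 14.3% of all genes) and 0 were called lower, with a median of 0.14. At an unadjusted p below 0.05, 4 of the 16 lay lower, and DESeq2 also called 0. Zfp42 (Rex1), a widely used reporter of the naive state (chr8:43743871-43760152), stood at 169.8, 185, 181, and 184 CPM in BAP1-AID and 651, 609, 651, and 635 CPM in UTX-AID ESCs. Every UTX-AID library was far above every BAP1-AID library, and the log2 fold change was 1.82 ± 0.06 (adjusted p = 1.96e-09). Its neighbours on chromosome 8, Triml1 and Triml2, were also called higher, at log2 fold changes of 1.74 and 2.33. The 82 genes of that stretch of chromosome 8 (chr8:39472818-67945276) had a median log2 fold change of 0.90, and 0.53 after the GC correction, against 0.02 for the whole chromosome. Tet2, a dioxygenase that oxidises 5-methylcytosine, was at 48.8, 44.6, 63.9, and 69.4 CPM in BAP1-AID and 273, 224, 269, and 259 CPM in UTX-AID ESCs (2.2 ± 0.10). Tcl1, a coactivator of AKT, had a log2 fold change of 1.06 ± 0.12, and 0.96 with the chromosome median taken off, which is below the threshold.

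Other naive factors were not called. Klf4 was at 13.5 to 16.1 CPM in BAP1-AID and 13.1 to 16.6 CPM in UTX-AID ESCs, with overlapping libraries and a log2 fold change of 0.04 ± 0.11 (adjusted p = 0.76). Esrrb was at 125 to 152 CPM against 146 to 201 CPM, which also overlapped (0.30 ± 0.09). After the GC correction Klf4 was at 0.34 and Esrrb at 0.66 (adjusted p = 7.15e-06), neither called, and the median of the list was 0.32. Log2 fold changes of Tfcp2l1, Prdm14, and Nr5a2, regulators of the naive network, were 0.10, 0.02, and 0.06. Klf2, a Krüppel-like factor, had the most negative value of the list at −0.96 ± 0.09, just short of the threshold.

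**Figure D1:**
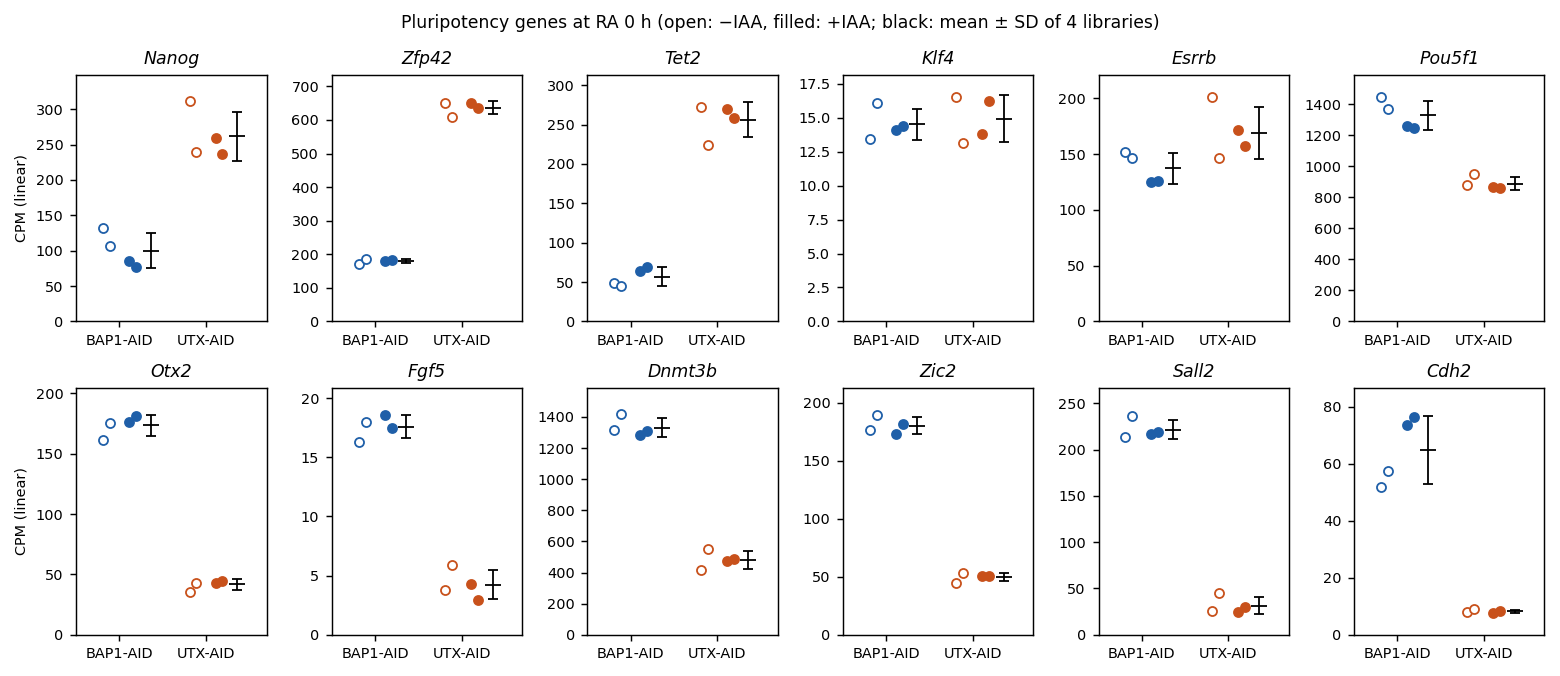
CPM on a linear axis from 0 of 12 pluripotency genes in each of the 8 libraries at RA 0 h (open circles −IAA, filled circles +IAA, black bars the mean ± SD of 4 libraries per clone). Nanog, Zfp42, and Tet2 were higher in UTX-AID ESCs, Klf4 and Esrrb overlapped between the clones, and Otx2, Fgf5, Dnmt3b, Zic2, Sall2, and Cdh2 were lower in every UTX-AID library than in any BAP1-AID library.

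The genes of the formative and primed epiblast showed the most uniform difference of the pluripotency lists. All 17 that were tested had a log2 fold change below 0, 9 were called lower and 0 higher, and the median was −1.47, against 8.17% called lower and a median of 0.04 among all genes. At an unadjusted p below 0.05, 16 were lower and 0 higher, and DESeq2 gave the same counts of calls as edgeR. In the fit with the GC and length correction the same 9 genes were called, and a median of −1.11 was found.

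Otx2, the factor that redirects OCT4 to formative enhancers (chr14:48894099-48911276), was at 161, 175, 176, and 181 CPM in BAP1-AID and at 35.4, 43.1, 43.3, and 44.9 CPM in UTX-AID ESCs. The clones did not overlap, with a log2 fold change of −2.06 ± 0.08 (adjusted p = 3.47e-09). Fgf5, a growth factor that marks the post-implantation epiblast, was at 16.3, 18, 18.6, and 17.5 CPM against 3.83, 5.9, 4.25, and 2.95 CPM (−2.07 ± 0.17). Pou3f1 (OCT6), which becomes expressed with Otx2, was at 145 to 159 CPM in BAP1-AID and 36.8 to 49.3 CPM in UTX-AID ESCs (−1.89 ± 0.09).

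The de novo DNA methyltransferases were lower in UTX-AID ESCs as well. Dnmt3b (chr2:153490861-153529650) was at 1314, 1419, 1284, and 1309 CPM in BAP1-AID and 417, 553, 471, and 484 CPM in UTX-AID ESCs. Its log2 fold change was −1.47 ± 0.08 (adjusted p = 3.94e-08), and the libraries did not overlap. Dnmt3a and the cofactor Dnmt3l had values of −0.80 ± 0.09 and −0.64 ± 0.07, below the threshold but larger than the spread between libraries. Of the other dioxygenases, Tet1 was called higher (1.17 ± 0.09) and Tet3, the dioxygenase prominent outside the naive state, lower (−1.15 ± 0.08), but both missed the threshold after the GC correction, at 0.72 and −0.74. The list of 12 genes of DNA methylation and imprint maintenance held 3 called higher and 2 called lower. Morc3, a GHKL ATPase of silenced chromatin and the remaining member called higher, had 1.31 and 0.73 after the correction.

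Transcription factors and adhesion genes of the list differed as strongly. Sall2, a zinc-finger factor of the SALL family, was at 213, 236, 217, and 219 CPM in BAP1-AID and 26, 45, 24.6, and 30.3 CPM in UTX-AID ESCs (−2.83 ± 0.15, adjusted p = 3.89e-08). Cdh2, encoding N-cadherin, which replaces E-cadherin as epiblast cells leave pluripotency, was at 51.9, 57.5, 73.5, and 76.3 CPM against 7.96, 8.91, 7.73, and 8.37 CPM. The log2 fold change of Cdh2 was −2.96 ± 0.11 (adjusted p = 4.33e-09), a 7.77-fold lower level in UTX-AID ESCs. Zic2, Foxd3, and Lef1, which act at the exit from the naive state, had log2 fold changes of −1.86 ± 0.07, −1.84 ± 0.10, and −1.53 ± 0.09. Tcf15 was the member with the smallest difference, at −0.06 with overlapping libraries.

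**Figure D2:**
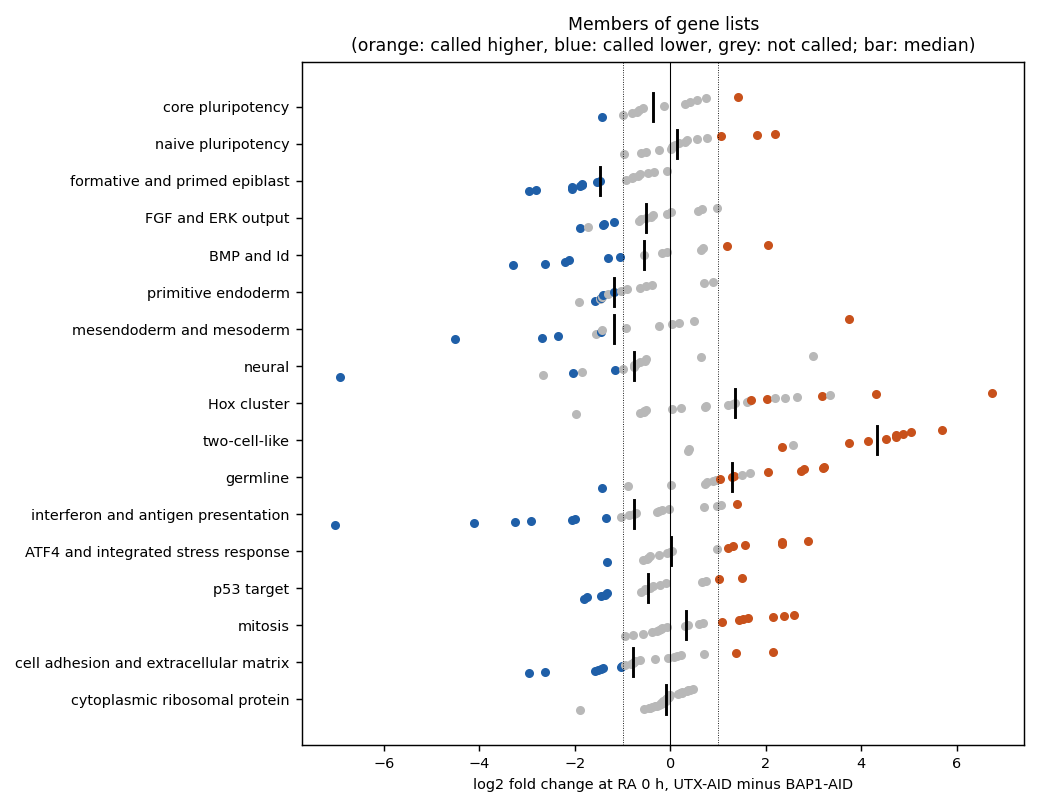
Log2 fold change (UTX-AID minus BAP1-AID, RA 0 h) of every tested member of 17 gene lists, 1 point per gene, with the median of each list as a black bar and dotted lines at −1 and 1. The formative list lies wholly below 0, the two-cell-like list wholly above 0, and the cytoplasmic ribosomal protein genes lie near 0 with 0 called, except Rps27 at −1.9 (not called).

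Several genes of signalling pathways that act on this balance differed. FGF4 signalling through ERK drives ESCs out of the naive state. Of 15 genes of the FGF and ERK list, 4 (26.7%) were called lower, against 8.17% of all genes, with a median of −0.50. The receptor Fgfr2 was at 17.5, 22.4, 30.1, and 29.2 CPM in BAP1-AID and 10.1, 9.08, 8.75, and 8.56 CPM in UTX-AID ESCs (−1.42 ± 0.15). Dusp4, a phosphatase induced by ERK, was at 51.3 to 64.7 CPM against 13.1 to 18.7 CPM (−1.9 ± 0.08). Fgfr1 (−1.17) and the immediate early gene Egr1 (−1.38) were called, but not after the GC correction (−0.77 and −0.99). Other ERK targets, Dusp6, Spry2, Spry4, and Etv4, were at −0.40, −0.65, 0.01, and 0.97 and were not called, but Etv4 passed the threshold after the correction (1.25).

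BMP signalling in serum induces the Id genes, which encode inhibitors of basic helix-loop-helix factors and help to hold back neural differentiation. Of 13 tested BMP and Id genes, 6 (46.15%) were called lower and 2 (15.4%) higher, with a median of −0.55. The ligand gene Bmp4 was higher in UTX-AID ESCs, at 17.1, 12.3, 9.66, and 11.9 CPM against 2.86, 3.14, 2.68, and 3.42 CPM in BAP1-AID ESCs (2.06 ± 0.17, adjusted p = 5.95e-07). The receptor gene Bmpr2 had a log2 fold change of 1.2, and 0.43 after the GC correction.

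The targets lay on the other side. Id1 was at 104, 90.03, 83.4, and 86.6 CPM in BAP1-AID and 17.9, 15.3, 11.7, and 14 CPM in UTX-AID ESCs, a log2 fold change of −2.64 ± 0.09 (adjusted p = 2.81e-09). Id2 and Id3 had values of −2.22 ± 0.12 and −2.11 ± 0.11, with no overlap between the clones. Id4 was at low levels (2.38 to 3.28 CPM against 1.0 to 1.95 CPM) and had −1.06 ± 0.25. Msx1, a homeobox target of BMP, was at 3.66, 2.83, 3.2, and 3.77 CPM against 0.249, 0.287, 0.624, and 0.221 CPM (−3.29 ± 0.32), and the inhibitory SMAD gene Smad6 had −1.3 ± 0.32, which was no longer a call after the GC correction (−0.97). Smad7 and Bambi, which encode feedback inhibitors of this signalling, were at −0.08 and −0.18.

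The LIF and Nodal lists held 1 call each, and the Wnt list held 3 called lower (25%) and 1 called higher. Of 12 LIF and STAT3 genes 1 was called, Lif itself, at 4.06 to 4.52 CPM in BAP1-AID and 1.64 to 2.42 CPM in UTX-AID ESCs (−1.1 ± 0.18), and it was not called after the GC correction (−0.77) or without the first UTX-AID −IAA library (−0.99). Lifr, Stat3, and Socs3, the receptor, the transducer, and its feedback inhibitor, had 0.76, −0.19, and −0.40. Among 11 Nodal and Lefty genes the activin receptor gene Acvr2b was called lower (−1.27, −0.91 after the correction). Among 12 tested Wnt targets, Lef1, Ccnd1 (−1.04, −0.77 after the correction, and −0.99 and −0.98 without the first BAP1-AID or UTX-AID −IAA library), and the ligand Wnt3 were called lower and Lgr5 higher. Lgr5, a receptor for R-spondins, was at 0 counts in all 4 BAP1-AID libraries and at 0.312, 0.328, 0.454, and 0.442 CPM in UTX-AID ESCs, which is at least 6.5-fold higher against the floor of 3 counts per library.

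Some genes of differentiating lineages were lower in UTX-AID ESCs, as counted below for each lineage. In bulk RNA, fewer cells of a type and less RNA per cell cannot be told apart. Among 15 tested primitive endoderm genes, 4 (26.7%) were called lower, with a median of −1.19. The 4 were not the defining transcription factors: they were Lamb1 (−1.58 ± 0.08), Col4a1 (−1.42), and Col4a2 (−1.45), which encode basement membrane laminin and collagen, and Cubn (−1.19), an endocytic receptor. Col4a1 and Col4a2 lost the call after the GC correction, at −0.96 and −0.98, and Cubn lost it without the second UTX-AID +IAA library (−0.90). Other members gained a call with the correction, after which the list held 3 called lower and 1 called higher. The regulators Gata6, Gata4, and Sox17 were at 0.306, 1.5, and 0.284 CPM on average in BAP1-AID and 0.570, 1.05, and 0.113 CPM in UTX-AID ESCs, and none of these 3 was called.

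Of 12 tested mesendoderm and mesoderm genes, 4 (33.3%) were called lower and 1 (8.33%) higher, and the median was −1.17. Eomes, a T-box factor of the primitive streak, was the most abundant of these, at 11.3, 12.5, 11.2, and 15.3 CPM in BAP1-AID and 6.32, 4.22, 4.06, and 3.96 CPM in UTX-AID ESCs (−1.45 ± 0.17). Fgf8, Wnt3, and Evx1, which act in or around the streak, were at 1.3 to 2.27, 0.660 to 1.53, and 0.883 to 1.72 CPM in BAP1-AID ESCs and at or below 0.686, 0.249, and 0.328 CPM in UTX-AID ESCs. Tbx6, a regulator of paraxial mesoderm, was the exception, at 0.603, 0.984, 0.831, and 0.341 CPM in UTX-AID ESCs and 0 to 0.118 CPM in BAP1-AID ESCs. Brachyury (T) was at 0.308 and 0.100 CPM on average and was not called.

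Of 14 tested neural genes, 3 (21.4%) were called lower, with a median of −0.76. Nefl, a neurofilament subunit, was at 46, 49.3, 49.1, and 47.4 CPM in BAP1-AID and 23, 24.7, 20.9, and 18.4 CPM in UTX-AID ESCs (−1.15 ± 0.08). Zic1 was at 0.996 to 1.75 against 0 to 0.582 CPM (−2.03 ± 0.70), a call that was lost without the first BAP1-AID +IAA library or either BAP1-AID −IAA library (−2.18 to −1.91). Irx3, a homeobox gene of neural and mesodermal patterning outside the list, was among the 10 largest lower values, at 5.44, 6.05, 4.85, and 4.8 CPM in BAP1-AID and 0.520, 0.225, 0.132, and 0.562 CPM in UTX-AID ESCs (−3.87 ± 0.35).

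Among 12 tested trophectoderm genes, Krt8, a keratin, was called higher (1.59 to 3.37 against 5.48 to 8.01 CPM, 1.59 ± 0.22) and Eomes and Ascl2 lower. Of 38 Hox genes, 23 passed the filter, and 5 were called higher before RA (DESeq2 called 7 higher and 1 lower). Hoxa3, Hoxa7, Hoxa10, and Hoxa11, of the Hoxa cluster on chromosome 6, were among them. Hoxa10 was at 0.211, 0.137, 0.136, and 0.143 CPM in BAP1-AID and 1.58, 1.23, 2.02, and 0.944 CPM in UTX-AID ESCs (3.19 ± 0.43). Hoxa11 was at 0 counts in BAP1-AID ESCs and at 0.166 to 0.410 CPM in UTX-AID ESCs, at least 4.43-fold higher. Hoxa3 (2.02 ± 0.79, adjusted p = 0.043) overlapped between the clones, and its call was lost in 7 of the 8 fits that left out 1 library, all but that without the second UTX-AID +IAA library (1.54 to 2.31). In the list of 16 tested genes of the RA pathway and its early targets, Stra8 was called higher and Meis2, a TALE homeobox cofactor, lower (−1.1 ± 0.17). Meis2 lost the call without the first +IAA library of BAP1-AID (−0.97) or UTX-AID (−0.98).

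Genes of the two-cell-like state were higher in UTX-AID ESCs. Of 12 tested genes, all had a log2 fold change above 0, 9 were called higher, and the median was 4.33 (3.61 after the GC correction). Summed over the 13 autosomal members, the level was 1.84 to 2.79 CPM in BAP1-AID and 26.9 to 42.7 CPM in UTX-AID ESCs. Zscan4c, whose protein acts in telomere maintenance (chr7:10739648-10744474), was at 0.326, 0.294, 0.311, and 0.205 CPM in BAP1-AID and 9.61, 8.44, 6.42, and 6.15 CPM in UTX-AID ESCs. The clones did not overlap, and the log2 fold change was 4.73 ± 0.20 (adjusted p = 8.06e-09).

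Zscan4a, Zscan4b, Zscan4d, and Zscan4f had log2 fold changes of 4.88, 3.74, 4.74, and 4.51. These genes are near-identical copies in 1 cluster on chromosome 7, so how reads were divided among them is uncertain, and they are not independent of each other. Other markers outside that cluster were also called higher. Tcstv3 was at 0 to 0.0589 CPM in BAP1-AID and 1.58, 0.635, 0.699, and 0.281 CPM in UTX-AID ESCs, and Zfp352 at 0 to 0.0766 against 0.241 to 0.437 CPM. Usp17la and Usp17lc, which also have close copies, were called as well, and Tdpoz4, Arg2, and Tmem92 were not.

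Genes of the germline, several of which are silenced in somatic cells by promoter methylation, were called higher more often than lower. Of 17 tested genes, 8 (47.1%) were called higher and 1 (5.88%) lower, with a median of 1.3 (0.91 and 7 called higher after the GC correction). Ddx4, the VASA helicase, was at 1.61, 1.69, 1.98, and 2.07 CPM in BAP1-AID and 14, 17.5, 16.2, and 20.02 CPM in UTX-AID ESCs (3.21 ± 0.13, adjusted p = 7.49e-09). Stra8, the gate to meiosis, was at 0.230, 0.569, 0.194, and 0.389 CPM against 3.64, 3.16, 3.53, and 2.55 CPM (3.22 ± 0.33). Stk31 and Sycp1, of the germ cell and the synaptonemal complex, had 2.8 ± 0.27 and 2.74 ± 0.18.

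Smc1b, the meiotic cohesin subunit, was outside the list but among the 10 largest higher values, at 0.479, 0.137, 0.854, and 0.840 CPM in BAP1-AID and 9.17, 11.6, 8.37, and 7.87 CPM in UTX-AID ESCs (4.05 ± 0.37). Tex19.1, expressed in both the germline and pluripotent cells, was the member called lower, at 113 to 124 against 38.8 to 48.1 CPM (−1.43 ± 0.08). Dazl (1.05) and Sycp3 (2.05) are AT-rich transcripts whose values were −0.27 and 0.51 after the correction, so the sign of Dazl turned.

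Among genes of the interferon response and antigen presentation, those called were mostly lower in UTX-AID ESCs. Of 19 tested genes, 7 (36.8%) were called lower and 1 (5.26%) higher, with a median of −0.76. Irf1, a transcription factor of interferon signalling, was the most abundant gene called, at 165, 143, 129.8, and 128 CPM in BAP1-AID and 31, 37.6, 32.8, and 33.1 CPM in UTX-AID ESCs (−2.07 ± 0.08, adjusted p = 6.42e-09). Psmb8, an immunoproteasome subunit (chr17:34416690-34420428), was at 6.42, 5.4, 5.28, and 4.9 CPM against 0.374, 0.184, 0.265, and 0.442 CPM (−4.11 ± 0.27). Its neighbours in the major histocompatibility region, Psmb9, Tap1, and Tap2, which process and transport peptides for antigen presentation, formed a run with it in which all 4 were called lower.

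Oasl2, an oligoadenylate synthetase-like gene, was at 3.71 to 4.83 against 0.359 to 0.602 CPM (−3.25 ± 0.23). Isg15, a ubiquitin-like modifier, was at 0.786, 0.275, 0.213, and 0.0820 CPM in BAP1-AID ESCs and at 0 counts in all 4 UTX-AID libraries, at least 5.63-fold lower. Interferon-inducible genes outside the list stood among the 10 largest lower values. Gbp2, a guanylate-binding GTPase, was at 18.8, 18, 21.8, and 23.3 CPM in BAP1-AID and 1.39, 1.33, 1.78, and 0.783 CPM in UTX-AID ESCs (−3.94 ± 0.20), Parp10 at 11.7 to 16.6 against 0.594 to 0.904 CPM (−4.13 ± 0.18), and Zbp1, a sensor of Z-form nucleic acids, at 8.05 to 10.4 against 0.328 to 1.14 CPM (−3.3 ± 0.29). Not all members followed: B2m, the light chain of class I molecules, was called higher (1.4 ± 0.23), and H2-K1 and H2-D1 were at 0.97 and −0.02.

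The promoters of this list were searched for an element through which interferons act, and other elements were not searched. Windows of 300 bases (250 before and 50 after the start, RefSeq, GRCm38.p6) were found for 17 of the 19 tested genes and searched on both strands for GAAA, any 2 bases, and GAAA again, a core of the interferon-stimulated response element. It stood in 7 of the 17 (41.2%), against 420 of 11855 autosomal genes tested that had a window (3.54%). Of the 6 genes called lower that had a window 1 held it, Isg15, and of the 10 that were not called 5 held it, namely Bst2, H2-T23, Ifit1, Ifitm2, and Ifitm3. B2m, called higher, held it as well. The 3 windows below are those of Isg15 (chr4:156200769-156201068, minus strand), with overlapping matches, B2m (chr2:122147437-122147736, plus strand), with 1 match, and Tap1 (chr17:34187306-34187605, plus strand), which overlaps the window of Psmb9 and held none. Capitals mark the matches.
Isg15: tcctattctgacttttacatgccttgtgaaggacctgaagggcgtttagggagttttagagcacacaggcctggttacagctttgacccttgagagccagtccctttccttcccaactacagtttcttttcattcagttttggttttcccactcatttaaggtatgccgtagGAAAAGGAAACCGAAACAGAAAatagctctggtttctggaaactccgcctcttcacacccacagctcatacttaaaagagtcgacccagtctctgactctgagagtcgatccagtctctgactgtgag
B2m: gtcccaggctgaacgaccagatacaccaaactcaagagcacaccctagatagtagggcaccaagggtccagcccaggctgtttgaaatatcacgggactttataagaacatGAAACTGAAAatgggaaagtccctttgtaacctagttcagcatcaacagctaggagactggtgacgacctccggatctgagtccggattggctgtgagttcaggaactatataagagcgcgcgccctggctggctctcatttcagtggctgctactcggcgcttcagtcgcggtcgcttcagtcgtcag
Tap1: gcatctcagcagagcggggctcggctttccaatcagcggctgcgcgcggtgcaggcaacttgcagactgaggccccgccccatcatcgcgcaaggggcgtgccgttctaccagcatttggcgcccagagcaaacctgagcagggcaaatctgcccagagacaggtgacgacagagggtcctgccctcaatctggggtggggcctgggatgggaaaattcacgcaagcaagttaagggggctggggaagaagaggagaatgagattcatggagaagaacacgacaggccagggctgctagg
These letters are a description of the windows, and a window without them says nothing of the factors that bind there. Bst2 and Ifitm2, 2 abundant interferon-inducible membrane protein genes with the motif, were at −0.72 ± 0.07 and −0.76 ± 0.07, below the threshold but larger than the spread between libraries.

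**Figure D3:**
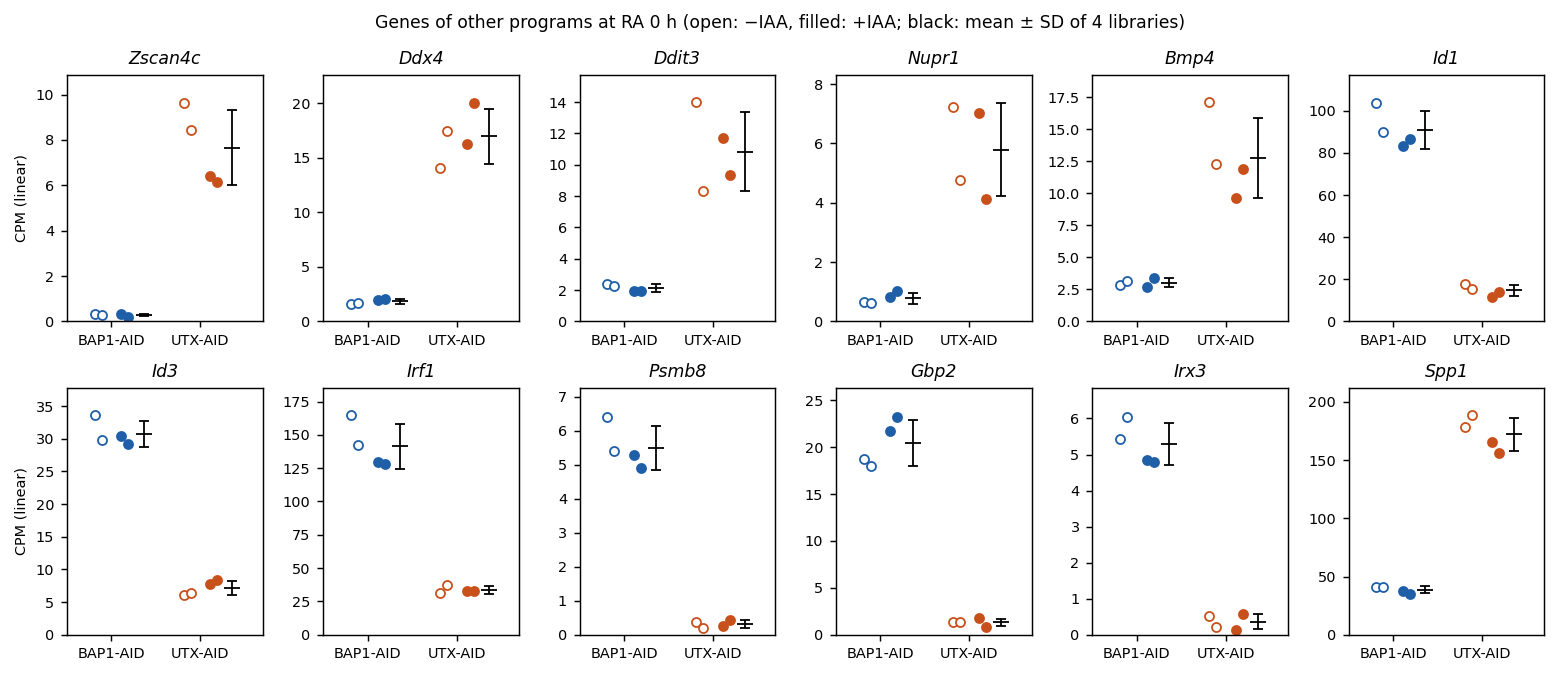
CPM on a linear axis from 0 of 12 genes of other programs in each of the 8 libraries at RA 0 h (open circles −IAA, filled circles +IAA, black bars the mean ± SD of 4 libraries per clone). Zscan4c, Ddx4, Ddit3, Nupr1, Bmp4, and Spp1 were higher in every UTX-AID library than in any BAP1-AID library, and Id1, Id3, Irf1, Psmb8, Gbp2, and Irx3 were lower.

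Stress pathways differed in part of their members. ATF4 activates genes of amino acid supply and, in prolonged stress, of cell death. Of 16 genes of this list, 6 (37.5%) were called higher and 1 (6.25%) lower, but the median was 0.01. Ddit3 (CHOP) was at 2.4, 2.26, 1.92, and 1.97 CPM in BAP1-AID and 14, 8.32, 11.7, and 9.34 CPM in UTX-AID ESCs (2.35 ± 0.18). Nupr1, a chromatin protein induced by stress, was at 0.628 to 1.02 against 4.12 to 7.24 CPM (2.89 ± 0.26), and Chac1, which degrades glutathione, at 0.609 to 1.57 against 3.07 to 6.33 CPM (2.33 ± 0.32). Trib3, Mthfd2, and Atf3 were the other 3 called higher, at 1.57, 1.32, and 1.2. The mRNA of Atf4 itself did not exceed the spread (−0.01 ± 0.07), and Psat1 and Phgdh of serine synthesis were at −0.42 and −0.57.

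Of 16 tested p53 targets, 5 (31.25%) were called lower and 2 (12.5%) higher, with a median of −0.48. Phlda3, an inhibitor of AKT, was at 28.3 to 31.3 CPM in BAP1-AID and 6.55 to 9.98 CPM in UTX-AID ESCs (−1.81 ± 0.11), and Plk2, Zmat3, and the BH3-only gene Bbc3 (PUMA) had −1.75, −1.46, and −1.37. Sesn2, a member of this list and of the ATF4 list, was called lower (−1.33), at −0.96 after the correction. Trp53inp1 and Rrm2b were the 2 called higher (1.02 and 1.5) and had −0.03 and 0.66 after the GC correction. Cdkn1a and Mdm2, which respond most directly to p53, were at −0.35 and −0.09.

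Adhesion and matrix genes were lower more often than higher: of 22, 8 were called lower and 2 higher, with a median of −0.78. After the GC correction, 5 were called lower and 3 higher. Beside Cdh2, Lamb1, and the type IV collagens, those lower were Lamc1 and Fn1, which lost the call after the correction (−0.59 and −0.61), Mmp2, a gelatinase (−1.53 ± 0.11), and the hyaluronan receptor Cd44 (0.824 to 2.93 against 0.181 to 0.374 CPM). Spp1, encoding osteopontin, was higher, at 40.6, 41.2, 37.8, and 35.2 CPM in BAP1-AID and 178, 189, 165, and 157 CPM in UTX-AID ESCs (2.15 ± 0.06, adjusted p = 1.96e-09), as was Nid1, which links laminin to collagen (1.38 ± 0.07). E-cadherin (Cdh1) was at 949 and 572 CPM on average (−0.73).

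Markers of fibroblasts, the usual feeder cells of ESC cultures, moved with these matrix genes. Of 16 such markers, 10 passed the filter and 6 were called lower in UTX-AID ESCs, and their summed level was 1480.0 to 1675 CPM in BAP1-AID and 732 to 753 CPM in UTX-AID ESCs. Fn1 (−1.04) and Vim (−1.41), which ESCs also express, made up most of that sum, and Dcn, a proteoglycan of connective tissue, was at 6.36 to 9.63 against 0.884 to 2.15 CPM. The defining fibroblast genes Col1a1 and Col1a2 were at 0.170 and 0.127 CPM in BAP1-AID and 0.402 and 0.0809 CPM in UTX-AID ESCs on average, and Postn was at or below the floor in all 8 libraries. Among 8 tested markers of blood and endothelium, Tek (−1.33) and Ptprc (CD45, 0.843 to 1.98 CPM in BAP1-AID and at most 0.0832 CPM in UTX-AID ESCs) were called lower. The part of such cells in the matrix, endoderm, and interferon differences was not tested.

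Genes of cell division were higher in part. Of 20 mitosis genes, 7 were called higher (0.34 in the median), and 4 were called higher after the GC correction. Mki67 was at 79.1, 93, 145, and 147 CPM in BAP1-AID and 467, 565, 491, and 482 CPM in UTX-AID ESCs (2.16 ± 0.15), and the kinetochore genes Cenpe and Cenpf had 2.6 ± 0.19 and 2.37 ± 0.15. In BAP1-AID ESCs, the +IAA libraries, listed as the last 2, lay above the −IAA libraries for Mki67. Cyclin and checkpoint genes Ccnb2, Plk1, Cdc20, and Aurkb had values of −0.39, −0.96, −0.78, and −0.29, so the list was split. Of 18 genes of S phase, 1 was called, Ccne2 (2.2 ± 0.13), higher.

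The difference between the clones moved with the base composition of transcripts. Over 14675 autosomal genes with an annotated transcript, GC content and log2 fold change had a Spearman rho of −0.304, and transcript length one of −0.093, and genes are not independent replicates. Of 10 bins of equal gene number, in the bin with the lowest GC content (29.6% to 41.9%), 43.6% were called higher and 3.41% lower, while in the bin with the highest (57.5% to 73.2%) 9.67% were called higher and 12.3% lower. Their medians were 0.95 and −0.23. After the correction rho for GC content was 0.0587. Uncorrected, it was −0.366 without IAA and −0.227 with IAA. Cep290 and Fsd1l, among the 10 genes with the largest higher values, had 3.54 and 3.49 and were still called after the correction, at 2.66 and 2.41. Whether base composition moved the values through the libraries or the cells was not tested.

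**Figure D4:**
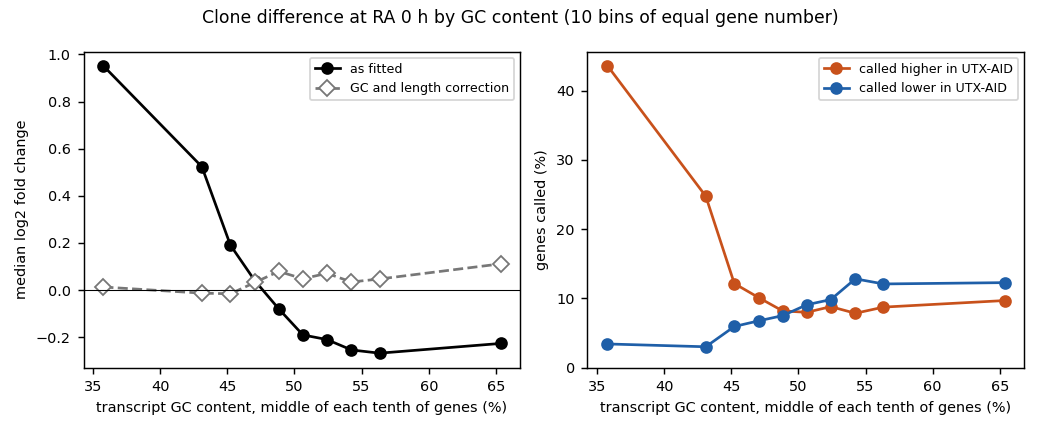
Left, median log2 fold change (UTX-AID minus BAP1-AID, RA 0 h) of 10 bins of equal gene number against transcript GC content in percent, as fitted (circles) and after the GC and length correction (diamonds). Right, the percentage of genes called higher or lower in each bin. The AT-rich bin at the left has a median of 0.95 and 43.6% of its genes called higher, and the corrected medians lie near 0.

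Bap1 mRNA was at 104, 102, 102, and 98.8 CPM in BAP1-AID and 78.4, 86.7, 78.2, and 86.5 CPM in UTX-AID ESCs (−0.31 ± 0.06, adjusted p = 0.0012), but its log2 fold change turned to 0.10 after the GC correction (adjusted p = 0.14). Kdm6a mRNA was at 61.2, 63.6, 101, and 103 CPM against 109, 114, 120.3, and 125 CPM. The log2 fold change of Kdm6a was 0.55. The degron acts on the protein, so these levels do not measure depletion. Of 9 PR-DUB genes and 10 genes of the UTX and MLL3/4 complex, 0 were called in either direction by edgeR or DESeq2, with medians of −0.37 and −0.34. At an unadjusted p below 0.05, 1 PR-DUB gene was higher and 6 were lower, and 2 genes of the UTX complex were higher and 6 lower. Of all autosomal genes, 60.7% passed even an adjusted p of 0.05, so these counts do not set the 2 complexes apart. In the PR-DUB list Asxl3 was called lower after the GC correction (−1.01), 1 gene was called lower at 3 h, and 1 higher and 1 lower with IAA and at 6 h. Of 27 genes of PRC1 and PRC2, 2 were called higher and 2 lower (7.41% each, below the 14.3% and 8.17% of all genes). Cbx8, a chromobox subunit of canonical PRC1, was called lower, at 2.91, 2.34, 2.68, and 3.44 CPM in BAP1-AID and 1.12, 1.09, 1.13, and 1.16 CPM in UTX-AID ESCs (−1.33 ± 0.21). Mtf2 and Rnf2 (RING1B) were the 2 higher (1.81 and 1.2), at 0.64 and 0.41 after the correction.

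Imprinted genes differed one by one. Of 37 tested, 3 were called higher and 7 lower, with a median of −0.41. Zim1 was at 0, 0.196, 0.175, and 0.287 CPM in BAP1-AID and 3.89, 2.42, 3.19, and 4.0 CPM in UTX-AID ESCs (4.4 ± 0.51), and Kcnq1ot1, a long noncoding RNA, at 5.98 to 9.86 against 46.4 to 61.9 CPM (2.74, but 0.81 after the correction). Ascl2 and Magel2 were lower, at −2.01 ± 0.33 and −1.45 ± 0.15. Of 8 tested clustered protocadherins, 4 were called higher and 1 lower: Pcdhga5 was at 0 counts in BAP1-AID ESCs and 0.737 to 1.66 CPM in UTX-AID ESCs, at least 22.8-fold higher, and Pcdhgc3 was at 36.8, 46.3, 21.6, and 21.3 CPM against 4.68, 3.5, 5.2, and 5.54 CPM (−2.66 ± 0.24). Protocadherin transcripts share exons, which makes their counts uncertain.

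The remaining lists of housekeeping and stress functions, beside the ATF4 and p53 lists above, held 0 to 5 called genes each. Of 30 cytoplasmic ribosomal protein genes, 0 were called by edgeR or DESeq2, and the median was −0.09. At an unadjusted p below 0.05, 8 were higher and 10 lower, while 60.7% of all genes passed even an adjusted p of 0.05. Of 25 genes of oxidative phosphorylation 2 (8%) were called lower, near the 8.17% of all genes. They were Ndufb8 (−1.11) and Ndufv1 (−1.02), both on chromosome 19. Ndufv1 lost its call after the GC correction (−0.85), and both did with the chromosome median taken off. Of 22 genes of hypoxia and glycolysis, 4 were called lower and 1 higher, with a median of −0.44. After the GC correction 1 was called lower and 2 higher, with a median of −0.19, as Pfkl, Aldoa, and Egln1 lost their calls and Vegfa passed the threshold (1.11). Pgam1, a glycolytic mutase on chromosome 19, was at 1326 to 1531 against 518 to 566 CPM (−1.39 ± 0.06), and Pfkp, the platelet-type phosphofructokinase on chromosome 13, at 80.02 to 86.6 against 188 to 221 CPM (1.29 ± 0.06). Both lost the call with the chromosome median taken off. Of 15 glutathione and NRF2 targets, 3 were called lower, with Gstp1 at −1.64 ± 0.07. Of 12 heat shock genes 2 (16.7%) were called higher, near the 14.3% of all genes, and the median was 0.07. Of these, Hsp90aa1 was at 1176, 1368, 1958, and 1963 CPM in BAP1-AID and 5522, 7402, 5846, and 6051 CPM in UTX-AID ESCs (1.97 ± 0.15). Of 14 endoplasmic reticulum chaperones 1 was called higher, Hsp90b1 (1.15, 0.57 after the correction), and of 20 cholesterol synthesis genes 2 were called higher and 1 lower, all 3 of which lost the call after the correction.

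The genes with the largest differences were not all members of these programs. Desmin (Des), an intermediate filament of muscle, was at 0.537, 0.471, 0.311, and 0.246 CPM in BAP1-AID and 5.2, 5.86, 5.1, and 4.74 CPM in UTX-AID ESCs (3.76 ± 0.23), and the mucin gene Muc3 at 0.196 to 0.640 against 4.24 to 6.09 CPM (3.94 ± 0.32). Ece2 was called (4.14 ± 1.37) on 3 BAP1-AID libraries at 0 and 1 at 2.3 CPM, and the call was lost in 7 of the 8 fits that left out 1 library, all but that without that library (3.60 to 4.83). Mrc2, a collagen receptor, was at 14.8, 13.8, 18.9, and 17.7 CPM against 1.85, 1.68, 1.38, and 1.31 CPM (−3.39 ± 0.16), and Hes3, a repressor of the Hes family, at 3.51 to 6.95 against 0.529 to 0.643 CPM (−3.11 ± 0.23). Lrp8os2, an antisense transcript, had −3.46 ± 0.21, and since strandedness is not stated, its reads cannot be told from those of Lrp8.

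The genes of 3 chromosomes were shifted as groups. The median log2 fold change was 0.61 over 606 genes of chromosome 13, 0.53 over 771 genes of chromosome 6, and −0.63 over 548 genes of chromosome 19, while the medians of the other 16 autosomes lay between −0.09 and 0.22. On chromosome 13, 31.4% of the genes were called higher and 4.62% lower, on chromosome 6 24.8% and 4.41%, and on chromosome 19 4.93% and 28.6%. The 4 UTX-AID libraries had chromosome 13 medians of 0.60 to 0.65 and chromosome 19 medians of −0.68 to −0.61 relative to the BAP1-AID mean, and the BAP1-AID libraries themselves lay within −0.06 to 0.09 and −0.04 to 0.05. The separation was thus larger than the spread between libraries in both.

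The shifts of chromosomes 6 and 19 ran along their length. With each chromosome split into 10 bins of equal gene number along its length, the bin medians were 0.30 to 0.85 on chromosome 6 and −1.07 to −0.14 on chromosome 19. On chromosome 13 the first 3 bins had medians of 1.22, 0.94, and 1.20, and the other 7 lay between −0.46 and 0.54. After the GC correction the medians were 0.34 for chromosome 13, 0.48 for chromosome 6, and −0.53 for chromosome 19. The 3 and 6 h libraries, which share no sample with these, had medians of 0.65 and 0.62 for chromosome 13, 0.51 and 0.52 for chromosome 6, and −0.63 and −0.62 for chromosome 19. Stretches of other chromosomes were shifted too, beside that of chromosome 8 around Zfp42. On chromosome 11, with a median of 0.11, the bins chr11:60821766-69881435 and chr11:69881888-77429433 had 0.80 and 0.44. Their medians were 0.87 and 0.58 after the GC correction, 0.71 and 0.34 at 3 h, and 0.62 and 0.32 at 6 h. Copy number was not measured, and the number of gene copies and the level per copy cannot be told apart from RNA.

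**Figure D5:**
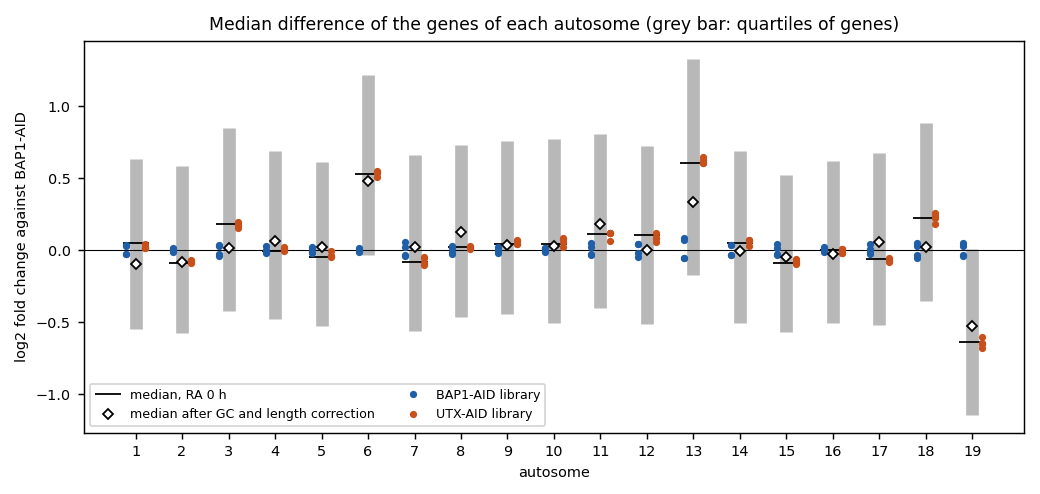
Log2 fold change against the mean of BAP1-AID ESCs for the genes of each of the 19 autosomes at RA 0 h. Black bars are the medians, grey bars the quartiles over genes, circles the medians of single libraries, and diamonds the medians after the GC and length correction. Chromosomes 6 and 13 lie above 0 and chromosome 19 below 0 in all 4 UTX-AID libraries, and the diamond of chromosome 13 lies lower than its bar.

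Neighbouring genes were often called together. There were 44 runs of at least 4 adjacent tested genes called higher, with 230 genes, and 13 runs called lower, with 67 genes. Of the higher runs, 10 lay on chromosome 13 and 6 on chromosome 6, and of the lower runs 7 lay on chromosome 19. In 13 of the higher runs and 0 of the lower ones, at least 1 in 2 symbols named a zinc-finger gene (Zfp, Zscan, Zkscan, or Znf). That count rests on symbols alone, and genes with provisional Gm symbols were not counted whatever they encode. The longest lower run, of 13 genes on chromosome 2, mixes Zfp and Gm symbols, so the count does not show that zinc-finger clusters were only higher. The 13 higher runs held 79 genes, of which 37 were still called after the GC correction and 75 and 76 were called higher at 3 and 6 h. Zinc-finger genes of such clusters are close copies of each other, so their counts are uncertain. Zfp991, in a run of 8 on chromosome 4, was at 6.42, 6.03, 7.84, and 9.08 CPM in BAP1-AID and 88.4, 108, 84.4, and 84.9 CPM in UTX-AID ESCs (3.64 ± 0.14).

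The lower run with the all-or-none differences lay on distal chromosome 2 (chr2:176362315-177700370, mm39), where 13 adjacent genes, 4 of them with Zfp symbols and 9 with provisional Gm symbols, were all called lower in UTX-AID ESCs, at log2 fold changes of −12.29 to −1.66, and all 13 remained called after the correction and at 3 and 6 h. It held all 4 genes that were at 3 counts or fewer in every library of one clone and at 1 CPM or more in every library of the other, Gm14322, Gm14296, Gm14403, and Zfp972. Gm14322 was at 11.5, 10.9, 14.5, and 12.7 CPM in BAP1-AID ESCs and at 0 counts in all 4 UTX-AID libraries, at least 206-fold lower. Zfp971 and Zfp970 of the same run had −7.58 ± 0.50 and −4.41 ± 0.28. There were 0 such genes in the opposite direction, and close copies in this region make their counts uncertain. Outside it, the GTPase genes Irgm1, Tgtp1, and Tgtp2 with Psme2b on chromosome 11, formed a lower run in which Irgm1 was at 40.4 to 53.3 against 11.4 to 16.4 CPM (−1.71 ± 0.12).

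The clones also differed within each IAA arm. The fit without IAA gave 2096 higher calls (13.8%) and 1152 lower calls (7.59%), and the fit with IAA 1902 (12.5%) and 1197 (7.89%). Of the 2168 genes called higher over both arms, 1256 were called in each arm alone, as were 839 of the 1239 called lower. The test of the interaction found 98 (0.646%) genes whose clone difference was higher with IAA than without and 74 (0.488%) for which it was lower. The difference of every formative gene called was below −1 in both arms, with Otx2 at −2.1 without and −2.02 with IAA.

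At 3 h of RA, 2131 (14%) autosomal genes were called higher and 1227 (8.08%) lower in UTX-AID ESCs, and at 6 h 2089 (13.7%) and 1274 (8.37%), with the RA response included in these values. Of the genes called higher at 0 h, 1702 of 2127 tested at 3 h and 1602 of 2125 tested at 6 h were called higher again, and 14 and 21 had the opposite sign. Of those called lower, 937 of 1209 and 923 of 1210 were called again, and 10 and 14 had the opposite sign. The formative list had 9 genes called lower at each time, with medians of −1.35 and −1.43. The two-cell-like list had 8 and 7 called higher. Otx2 had −2.64 and −2.97, Zfp42 1.69 and 1.65, and Psmb8 −3.59 and −4.03. The Hox list did not keep its direction: at 3 h it held 4 genes called higher and 5 called lower, and at 6 h 3 and 6. Stra8 was at −0.15 and −1.03, against 3.22 before RA.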

How the data were processed

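PolyA-selected RNA of 8 libraries at RA 0 h (2 per clone and IAA arm) was compared. The authors aligned reads to mm39 with HISAT2 2.2.1 and quantified genes with StringTie 2.2.1, and the deposited values are estimated counts derived from StringTie coverage, stored as whole numbers per gene. The annotation and the strand setting are not given in the sources used here. Genes were placed on the autosomes by GENCODE vM39 (23896 genes) or RefSeq symbol (2325 genes), and 43 genes were not placed.

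The counts were filtered with filterByExpr (minimum count 10, minimum total 15), scaled by TMM, and fitted with edgeR 4.0.16 (quasi-likelihood, robust, R 4.3.3) with terms for IAA arm and clone. P-values were adjusted by Benjamini-Hochberg over all 15794 genes tested, and 15171 autosomal genes are reported. The GC and length correction entered splines of 5 degrees of freedom as offsets. Fits within each arm, the interaction, the RA 3 and 6 h libraries, DESeq2 1.42.0, RLE scaling, other count filters, all 24 libraries in 1 fit, a chromosome offset, a replicate block, and leaving out each library were run as alternatives. The procedure was tested on simulated data.

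Gene lists (37) held textbook markers and pathway members. In the text appear the 10 genes with the largest log2 fold change in each direction among called, non-overlapping genes at 5 CPM or more with a full gene name, every called member of the core, naive, and formative lists with their defining factors, up to 4 called members with the largest change in each other list, up to 6 all-or-none genes per direction, members of runs of at least 4 genes, Bap1, and Kdm6a. Further list members (beyond 4, or not called), Triml1, Triml2, Rps27, the Y genes, and the promoter motif were chosen after values were seen. Some genes that the rule names are not reported here. The members and lists were chosen with earlier results of these data known. Replicates of a group had log2 count correlations of 0.982 to 0.985 across genes, and libraries of different clones 0.966 to 0.968.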

Additional observations from a re-analysis of the deposited data

Results flagged for a closer look

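Among the named genes, 4 had a called interaction of clone and IAA in the edgeR test (adjusted p below 0.05, absolute value above 1). The value given is the clone difference with IAA minus that without IAA, on the log2 scale. For Smc1b, the meiotic cohesin subunit, this value was -1.80, from a clone difference of 5.05 without and 3.26 with IAA. For Dcn, the proteoglycan among the fibroblast markers, it was -1.23 (-1.83 without and -3.07 with IAA), and for Cenpe, the kinetochore motor, -1 (3.1 and 2.1). For Pcdhgc3, the constitutive gamma protocadherin, it was 1.34 (-3.34 and -2.0). All 4 genes were called in the same direction in both arms. Other named genes passed the adjusted p of the interaction test at a smaller size. Among them were Fsd1l (-0.93, adjusted p = 0.0011), Zfp991 (-0.65, adjusted p = 0.0093), and Mrc2 (-0.76, adjusted p = 0.040).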

How the results depend on the processing

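The counts of genes called at RA 0 h kept within 1.5 times of 2168 higher and 1239 lower under every alternative run: 2444 and 1284 with DESeq2, 2214 and 1191 with RLE scaling, 2102 and 1249 without a filter on low counts, 1705 and 938 at 1 CPM or more, 2383 and 1290 with all 24 libraries in 1 fit, 1810 and 1016 with the GC correction, and 1955 and 1233 with the chromosome offset. Leaving out each library in turn gave 1975 to 2131 higher and 1139 to 1223 lower at 0 h, 1891 to 2143 and 987 to 1143 without IAA, 1650 to 1904 and 1085 to 1214 with IAA, 1998 to 2140 and 1172 to 1241 at 3 h, and 1945 to 2078 and 1181 to 1229 at 6 h. The interaction counts (98 and 74) moved most: DESeq2 gave 49 higher, the GC correction 57 higher and 29 lower, and leaving out 1 library 60 to 115 higher and 62 to 153 lower, with 153 lower without the second BAP1-AID −IAA library and 60 and 62 higher without the first and second UTX-AID +IAA library. The cause was not tested.

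Replicate numbers did not pair the libraries, with deviations of same-numbered libraries correlated at -0.00764 to 0.0407 across genes. A fit with the replicate number as a block called 2091 higher and 1214 lower, and 101 and 77 for the interaction, and of the 130 genes followed it ended the call of Hoxa3 alone. Of those 130 genes, no called gene turned direction, while Bap1 (0.10 with the GC correction) and Klf4 (-0.026 to -0.0053 without the first BAP1-AID −IAA, the first UTX-AID −IAA, or the second UTX-AID +IAA library), which were not called, did. The GC correction ended 24 calls, the chromosome offset 11, 1 CPM or more 5, DESeq2 and RLE scaling 3 each, and no filter 2, and leaving out a library ended 48 calls in 17 genes. Over all autosomal genes, calls did turn direction with the GC correction. Of the 2168 called higher, 40 had the opposite sign after it, Trp53inp1 among them, and of the 1239 called lower 0 did. The median of the LIF, Wnt, trophectoderm, and cholesterol lists turned from below to above 0 with the GC correction (0.26, 0.0045, 0.021, and 0.081), and that of the protocadherins fell below 0 at 1 CPM or more (-0.75). Genes near the floor of 3 counts, such as the Hox genes, are limited by depth.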

Other observations

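Of 7 tested genes of the Y chromosome, all were called lower in UTX-AID ESCs, and 6 were at 0 counts in all 4 UTX-AID libraries (chosen after their values were seen). Eif2s3y was at 35.7, 38.5, 56.3, and 53.7 CPM in the BAP1-AID libraries and Uty, the Y-linked homologue of Utx, at 7.89, 9.50, 12.1, and 14.5 CPM, and both were at 0 in UTX-AID ESCs. Ddx3y had 4 counts in 1 UTX-AID library and none in the other 3. Kdm6a and the Y genes were both higher in the +IAA than in the −IAA libraries of BAP1-AID ESCs.

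Rps27, a ribosomal protein gene, was at 722 CPM in the second BAP1-AID +IAA library and at 21.4 to 38.4 CPM in the other 7 libraries at RA 0 h (chosen after its values were seen).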
